A study of Mus musculus with 32 samples.

Results

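The unfolded protein response and the stress response downstream of it were followed in mouse rods and cones, the photoreceptors, across genotype and circadian time through 9 genes. They are Herpud1, Sdf2l1, Xbp1, Manf, Hspa5, Hsp90b1, Atf4, Ddit3 and Ddit4. The 9 were taken by symbol, out of 54232 genes in the count table, from a list chosen with earlier results of these data known. All 9 were among the 17871 genes with enough counts to be tested. The study compared wild-type mice (WT) with Per1-/-Per2Brdm1 mice (KO), which carry mutant alleles of both of the clock repressors Per1 and Per2. Both groups were 6-week-old males of the mixed background C57BL/6/J x 129 SvEvBrd, and the labels name no tissue-restricted driver for either allele. Photoreceptors were cut from frozen eyes by laser capture at circadian times (CT) 19, 22, 1 and 10, hours of the internal day with 0 at subjective dawn. There were 32 libraries, 4 for each pairing of genotype and time, and 1 library of WT at CT1 has 2 animal numbers in its label. The label of 1 library of WT at CT10 (replicate 5) holds the letter R where all others hold L, and the labels do not explain these letters.

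The endoplasmic reticulum (ER) folds membrane and secreted proteins, and in a photoreceptor it supplies the membrane proteins of an outer segment that is renewed every day. When unfolded proteins build up there, the sensors IRE1 (Ern1), PERK (Eif2ak3) and ATF6 signal to the nucleus. IRE1 splices the Xbp1 transcript into one that encodes an active transcription factor, ATF6 is cut to release its own factor, and PERK phosphorylates eIF2 alpha, which slows translation in general while favouring translation of Atf4. Targets of these branches include the chaperones Hspa5 (BiP) and Hsp90b1 (GRP94), the co-chaperone Sdf2l1, the secreted ER protein Manf, Herpud1 of ER-associated degradation, and Ddit3 (CHOP) and Ddit4 (REDD1), which lie downstream of ATF4. Gene counts as used here do not separate spliced from unspliced Xbp1 and do not measure the translation of Atf4.

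Promoters of 4 members are printed because exact matches to the ER stress response element (ERSE) and its variant ERSE-II are found in some members and not in others. ATF6 and XBP1 are known to act through these sites. Copies that depart from the searched letters were not counted. RefSeq windows on GRCm38.p6, from 250 bases before to 50 bases after each annotated start, were matched by symbol for 8 of the 9 members. In each window 7 motifs were searched on both strands. Each line gives the 250 bases before the start, 5′ to 3′ on the strand of the gene, with matches to ERSE, ERSE-II or the ATF4 composite site in capitals. Herpud1 is at chr8:94386179-94386428 on the plus strand, Hspa5 at chr2:34771840-34772089 on the plus strand, Hsp90b1 at chr10:86705445-86705694 on the minus strand and Sdf2l1 at chr16:17132384-17132633 on the minus strand.
Herpud1: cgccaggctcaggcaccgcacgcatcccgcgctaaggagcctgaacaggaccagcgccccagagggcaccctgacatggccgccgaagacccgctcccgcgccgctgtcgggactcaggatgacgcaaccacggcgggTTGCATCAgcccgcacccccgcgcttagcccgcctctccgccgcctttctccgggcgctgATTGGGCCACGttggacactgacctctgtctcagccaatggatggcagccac
Hspa5: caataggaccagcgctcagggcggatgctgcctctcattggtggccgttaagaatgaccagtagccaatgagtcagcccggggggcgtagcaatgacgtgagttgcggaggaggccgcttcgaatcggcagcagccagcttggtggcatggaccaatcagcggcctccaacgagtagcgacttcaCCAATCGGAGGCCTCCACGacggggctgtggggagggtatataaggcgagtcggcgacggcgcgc
Hsp90b1: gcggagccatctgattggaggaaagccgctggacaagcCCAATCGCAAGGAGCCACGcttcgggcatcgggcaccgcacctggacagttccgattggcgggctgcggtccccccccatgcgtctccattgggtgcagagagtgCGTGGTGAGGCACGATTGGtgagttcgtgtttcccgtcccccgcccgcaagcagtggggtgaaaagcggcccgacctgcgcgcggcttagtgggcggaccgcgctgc
Sdf2l1: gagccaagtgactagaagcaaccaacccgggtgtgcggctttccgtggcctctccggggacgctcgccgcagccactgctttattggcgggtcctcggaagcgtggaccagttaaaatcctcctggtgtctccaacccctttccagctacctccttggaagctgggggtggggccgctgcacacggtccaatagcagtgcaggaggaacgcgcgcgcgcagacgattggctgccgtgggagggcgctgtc

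ERSE was searched as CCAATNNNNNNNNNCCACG and was present in 39 of 32851 windows of all genes (0.119%). Hspa5 held 1 match, from -65 to -47 relative to its start, and Hsp90b1 held 2, from -212 to -194 and, on the other strand, from -107 to -89. ERSE-II, searched as ATTGGNCCACG, was present in 12 windows (0.0365%), among them that of Herpud1, from -52 to -42. Herpud1 also held the ATF4 composite letters TGATGNAA on the strand opposite to the gene, from -112 to -105, which 3.97% of all windows hold. No member window held the UPRE core TGACGTGG (0.676% of all windows), the E-box CACGTG (7.15%) or the D-box TTATGNAA (3.38%). The plain CCAAT box, which every ERSE contains and which overlaps the ERSE-II match of Herpud1, was in 7 of the 8 member windows and in 37.4% of all windows. A match describes letters in a window and does not show that a factor binds there, and the RefSeq starts used here lie 0 to 120 bases from the GENCODE starts of the same genes.

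Library totals ranged from 23833604 to 34582742 counts. Levels are given as CPM, counts scaled to a common library total, with library sizes adjusted by the TMM method, and the lowest count behind any member value was 122, for Sdf2l1. The targeted genes were higher in KO at all times, with Per2 group means between 187 and 208 CPM in KO against 21.1 to 36.2 in WT, and Per1 between 188 and 227 CPM against 102 to 131; counts over a whole gene do not check the deleted parts. The mean log2 CPM over the rod markers lay between 12.07 and 12.34 in the 8 groups. Over the cone markers it was 7.57 in WT and 7.16 in KO at CT10, and 7.52 and 7.14 at CT1. Markers of other retinal cells were also present. The mean log2 CPM of the inner retinal markers (bipolar cells, Muller glia and amacrine cells) was 3.31 ± 0.36 (SD) in WT at CT10. In the other 7 groups it ranged from 3.83 to 4.53. Horizontal and ganglion cell markers were not part of this level. Lens markers ranged from 4.02 in WT at CT19 to 7.98 in WT at CT1, with 7.46 in WT at CT10 against 4.89 in KO at CT10. In bulk libraries of this kind, a lower level may come from fewer cells of a type or from less RNA per cell, which cannot be told apart.

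Per kilobase of exon, Atf4 and Hsp90b1 were the most abundant members and Sdf2l1 the least. The length counts every annotated exon base of a gene and not 1 transcript, so the order depends on the annotation. Manf, for example, has 3524 such bases and Ddit3 1713. Atf4 stood at 137 ± 20.7 CPM per kb over the 16 WT libraries (SD) and Hsp90b1 at 119 ± 24.4, followed by Ddit4 at 106 ± 14.4, whose values overlap those of both. Hspa5 stood at 56.3 ± 10.6, Xbp1 at 29.4 ± 7.41 and Ddit3 at 19.3 ± 2.86 CPM per kb. Herpud1 at 15.9 ± 2.82 and Manf at 13.5 ± 2.46 differed by less than their spread, and Sdf2l1 stood at 5.43 ± 1.22. In KO the order was the same except for Herpud1, which at 22.3 ± 3.04 CPM per kb stood above Ddit3 (19.1 ± 1.72).

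**Figure D1:**
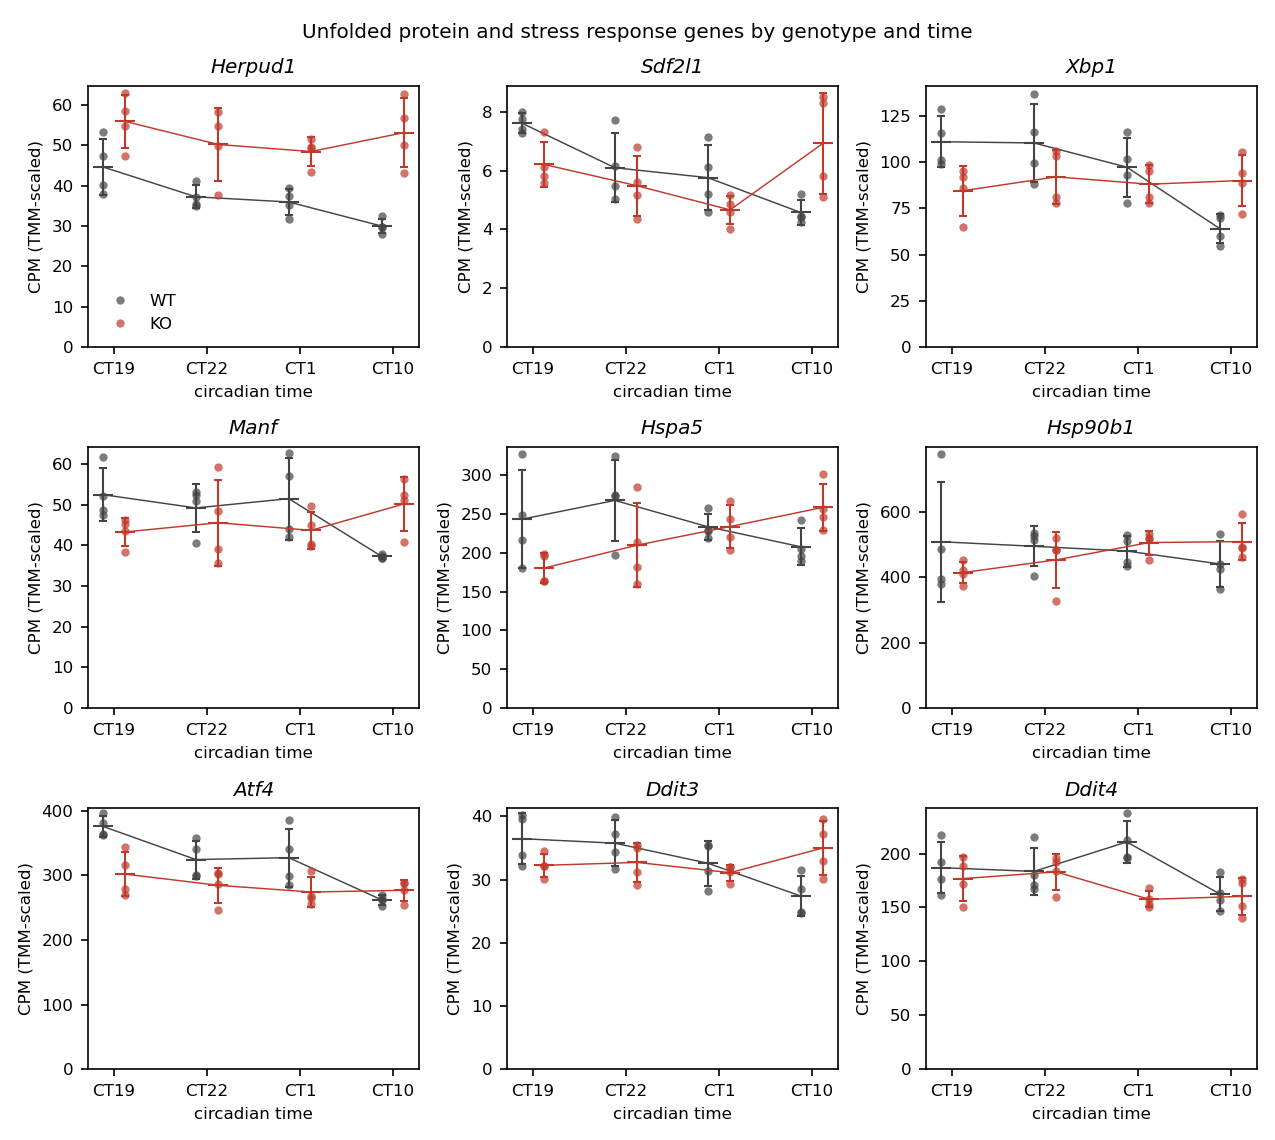
TMM-scaled CPM of the 9 genes at the 4 circadian times (spaced evenly), WT in grey and KO in red; each point is 1 library, the dash is the group mean and the bar is the SD of 4 libraries. Herpud1 is higher in KO at every time, and in WT the mean of each gene is lowest at CT10.

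Herpud1 was the member that differed most between the genotypes. It encodes a membrane protein that brings together the complex degrading misfolded ER proteins, and the gene lies on GRCm38 chromosome 8, 94386438 to 94395377, plus strand (ENSMUSG00000031770). Over the 16 libraries of each genotype it stood at 37.0 ± 6.57 CPM in WT and 52.0 ± 7.09 CPM in KO (SD). It rose in KO by 0.50 (SE 0.06) on the log2 scale averaged over the times, which is 1.42-fold, with an adjusted p of 3.81e-07. This and every adjusted p below comes from edgeR's quasi-likelihood test with Benjamini-Hochberg adjustment over all 17871 genes, unless another tool is named, and a gene is said to be called when it is under 0.05.

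At CT10 the 4 WT libraries held Herpud1 at 27.98, 29.8, 29.8 and 32.4 CPM, and the 4 KO libraries held it at 43.2, 50.03, 56.7 and 62.8 CPM. Every KO library was thus above every WT library, and the log2 difference of 0.83 (SE 0.12, 1.77-fold) was called with an adjusted p of 3.76e-05. At CT1 the WT libraries held 31.8, 35.3, 37.4 and 39.4 CPM and the KO libraries 43.4, 49.4, 49.7 and 51.6 CPM, again without overlap, and the difference of 0.43 (SE 0.12) did not pass the threshold with an adjusted p of 0.0656. For comparison, all KO libraries lay above all WT libraries for 10.5% of tested genes at CT10 and for 3.4% at CT1. At CT19 (0.32, SE 0.12, adjusted p = 0.111) and CT22 (0.43, SE 0.12, adjusted p = 0.0678) the ranges of the genotypes overlapped. With CT10 left out altogether, Herpud1 was 0.40 higher in KO (SE 0.07, adjusted p = 0.000208), in a comparison that called 11.7% of all genes.

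Of the other 8 members only Atf4 was called between the genotypes averaged over the times, and it was lower in KO. Atf4, the transcription factor of the integrated stress response (chromosome 15, 80255184 to 80257541, plus strand), stood at 323 ± 48.8 CPM in WT and 284 ± 25.8 CPM in KO (SD, 16 libraries each), a difference of -0.17 on the log2 scale (SE 0.05, adjusted p = 0.0103). The 2 called members of 9 stand beside a comparison in which 16.3% of all genes were called. For the remaining 7 members the differences ran from -0.13 for Ddit4 (SE 0.05, adjusted p = 0.0779) to -0.01 for Ddit3, and the 95% interval of Hspa5, from -0.28 to 0.05, shows the width at which these values are known. Markers of other cells differed in this comparison too: 12 of 14 bipolar, 8 of 14 Muller glia, 5 of 8 horizontal and 5 of 12 amacrine markers were called, all higher in KO. Of the photoreceptor markers, 5 of 12 for rods were called, 4 of them lower in KO (median -0.13), and 5 of 9 for cones, 4 of them lower (median -0.26). The part of the rod and cone marker differences in the member results was not tested. With the inner retinal level as a covariate Herpud1 was 0.42 higher in KO (SE 0.08, adjusted p = 0.0011; 4.25% of genes called) and Atf4 was at -0.17 with an adjusted p of 0.135. With the lens level both were called (17.3% of genes called), and with both levels only Herpud1 was (0.37, adjusted p = 0.01; 3.04% of genes called).

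At CT19 the 4 WT libraries held Atf4 at 362, 364, 381 and 397 CPM and the 4 KO libraries at 269, 279, 316 and 344 CPM. No KO library reached the lowest WT library, and Atf4 fell by 0.32 on the log2 scale in KO (SE 0.09, adjusted p = 0.0394), the 1 called member at a time when 5.19% of all genes were called. The call was lost, at -0.34 to -0.27 and an adjusted p of 0.0559 to 0.124, when any of 7 of the 8 libraries of this time was left out (all but KO replicate 5), and with the inner retinal level (-0.31, adjusted p = 0.098) or the lens level (-0.30, adjusted p = 0.0632) as a covariate. Xbp1 was below WT in all KO libraries at CT19 as well, at 65.0, 86.1, 91.6 and 95.2 CPM against 98.9, 101, 116 and 128 CPM, and its difference of -0.39 (SE 0.15) had an adjusted p of 0.112. Manf likewise stood at 38.4, 43.4, 45.2 and 46.2 CPM in KO and at 47.4, 48.7, 52.1 and 61.7 CPM in WT, with a difference of -0.28 (SE 0.13, adjusted p = 0.227). Of all tested genes, 4.56% had every KO library below every WT library at CT19. In all, 8 of the 9 members had a negative difference at this time, Herpud1 being the exception, with a median of -0.29 against 0.01 over all genes.

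No member was called at CT22, where 1.53% of all genes were called; 3 members had an unadjusted p under 0.05, and DESeq2 called 1, Herpud1. Ddit4 was the 1 member called at CT1, where 1.58% of all genes were called. Ddit4 encodes an inhibitor of the growth kinase complex mTORC1 that is induced by ATF4, glucocorticoids and low oxygen (chromosome 10, 59949669 to 59951834, minus strand). At CT1 the WT libraries held it at 196, 197, 213 and 238 CPM and the KO libraries at 151, 153, 158 and 168 CPM, without overlap, which 3.36% of genes showed in this direction. It fell in KO by 0.42 on the log2 scale (SE 0.10, adjusted p = 0.0241) and at the other times differed by between -0.08 and 0.00. Lens markers stood at 7.98 in WT and 6.24 in KO at CT1 (mean log2 CPM), and with the lens level as a covariate Ddit4 was at -0.39 (SE 0.11, adjusted p = 0.0686), no longer called, while with the inner retinal level it was (-0.42, adjusted p = 0.03). It was not called either when WT replicate 5 of CT1, the library with 2 animal numbers in its label and the highest in Ddit4, was left out (-0.36, adjusted p = 0.108), or KO replicate 4, 5 or 6 (adjusted p from 0.0561 to 0.0722).

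In WT every member had its lowest mean at CT10, late in the subjective day. Any difference among the times was called in WT for 6 of the 9 members, Herpud1, Sdf2l1, Xbp1, Manf, Atf4 and Ddit3, while 14.6% of all genes were called. CT10 against the mean of the other times was called for 7 of 9, all of them lower at CT10; of all genes 20.9% were called in this comparison and 10.4% were called as lower. When CT10 was left out, edgeR called no gene of all 17871 for a difference among CT19, CT22 and CT1 in WT, where 1791 genes, 2 of them members, had an unadjusted p under 0.05.

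**Figure D2:**
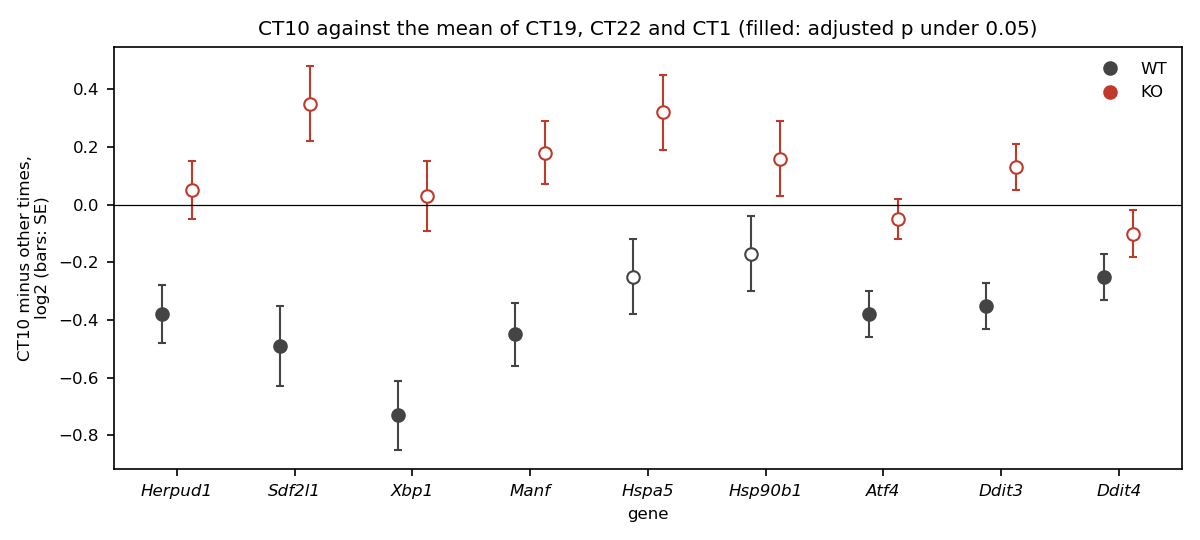
Log2 difference of CT10 from the mean of CT19, CT22 and CT1 for each gene, WT in grey and KO in red, with bars of 1 SE; filled points are called. All 9 WT points are below 0 and 7 of the 9 KO points are above it.

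Xbp1, the transcription factor made by IRE1 splicing (chromosome 11, 5520659 to 5525893, plus strand), changed most. The WT libraries at CT10 held it at 54.6, 60.1, 69.9 and 71.4 CPM, and no other WT library was below 77.9 CPM. It fell by 0.73 on the log2 scale (SE 0.12, adjusted p = 0.000136), a level 1.65-fold lower than at the other times. Manf, a neurotrophic factor retained in the ER (chromosome 9, 106838312 to 106891979, minus strand), stood within 36.9 to 37.8 CPM in WT at CT10 and between 40.5 and 62.8 CPM in the other WT libraries, and fell by 0.45 (SE 0.11, adjusted p = 0.00468). Atf4 stood at 253, 263, 263 and 270 CPM in WT at CT10, below all the other 12 WT libraries, the lowest of which held 285 CPM, and fell by 0.38 (SE 0.08, adjusted p = 0.000655). For these 3 genes all WT libraries of CT10 thus lay below the other 12, which 2.28% of all tested genes showed.

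Sdf2l1, an ER protein that assists Hspa5 (chromosome 16, 17130138 to 17132383, minus strand), stood at 4.24, 4.42, 4.46 and 5.19 CPM in WT at CT10, against 7.27, 7.42, 7.76 and 7.998 CPM at CT19. It fell by 0.49 (SE 0.14, adjusted p = 0.0136). Ddit3, a transcription factor that promotes cell death in lasting ER stress (chromosome 10, 127290774 to 127296288, plus strand), fell by 0.35 (SE 0.08, adjusted p = 0.00341). Herpud1 fell by 0.38 (SE 0.10, adjusted p = 0.00734) and Ddit4 by 0.25 (SE 0.08, adjusted p = 0.0338). Of these 7 calls, that of Ddit4 was lost when WT replicate 1, 2 or 4 of CT10 or WT replicate 2 of CT19 was left out (adjusted p from 0.0537 to 0.138), and the other 6 were kept with any library left out. The 2 abundant chaperones were not called: Hspa5 was at -0.25 (95% interval -0.53 to 0.02) and Hsp90b1 at -0.17 (-0.44 to 0.11).

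In KO no member was called for any difference among the times, nor for CT10 against the other times; each of these KO comparisons called 1 gene of all tested, or 0.0056%. In both, 2 members had an unadjusted p under 0.05 and DESeq2 called none, while over all genes DESeq2 called 183 and 29. The KO values of CT10 against the other times ran from -0.10 for Ddit4 to 0.35 for Sdf2l1 (SE 0.13, adjusted p = 0.489), positive for 7 of 9. Hspa5 was at 0.32 (SE 0.13, adjusted p = 0.506).

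The genotypes differed at CT10 for 5 members, all higher in KO: Herpud1, Sdf2l1, Xbp1, Manf and Ddit3. This comparison uses the same WT libraries of CT10 as the fall within WT, so the results are not independent. Over all genes 10.2% were called at this time and 7.2% were called as higher in KO, and the members had a median difference of 0.35 against -0.01 over all genes. Beside Herpud1, given above, Xbp1 stood at 71.9, 88.8, 93.9 and 105 CPM in the KO libraries, all above the 54.6 to 71.4 CPM of WT, and rose by 0.49 (SE 0.15, 1.40-fold, adjusted p = 0.0296). Manf stood at 40.9, 51.2, 52.3 and 56.3 CPM in KO, above the highest WT library at 37.8 CPM, and rose by 0.43 (SE 0.13, 1.35-fold, adjusted p = 0.0381). The KO libraries thus stood above all WT libraries for 3 members, Herpud1, Xbp1 and Manf.

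Sdf2l1 at CT10 varied more in KO, with libraries at 5.11, 5.81, 8.30 and 8.49 CPM, of which the lowest was within the WT range, and it rose by 0.60 (SE 0.17, 1.51-fold, adjusted p = 0.0214). Ddit3 stood at 30.2, 33.0, 37.2 and 39.6 CPM in KO and at 24.8, 24.9, 28.4 and 31.4 CPM in WT, so that 1 library of each genotype overlapped, and it rose by 0.35 (SE 0.10, 1.28-fold, adjusted p = 0.0214). Hspa5 was 0.31 higher (95% interval -0.02 to 0.65) and Hsp90b1 0.21 higher (-0.13 to 0.54), neither of them called. Atf4 (0.08, SE 0.09) and Ddit4 (-0.02, SE 0.10), which were low at CT10 in WT, were not called between the genotypes, with 95% intervals of -0.11 to 0.27 and -0.23 to 0.19.

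**Figure D3:**
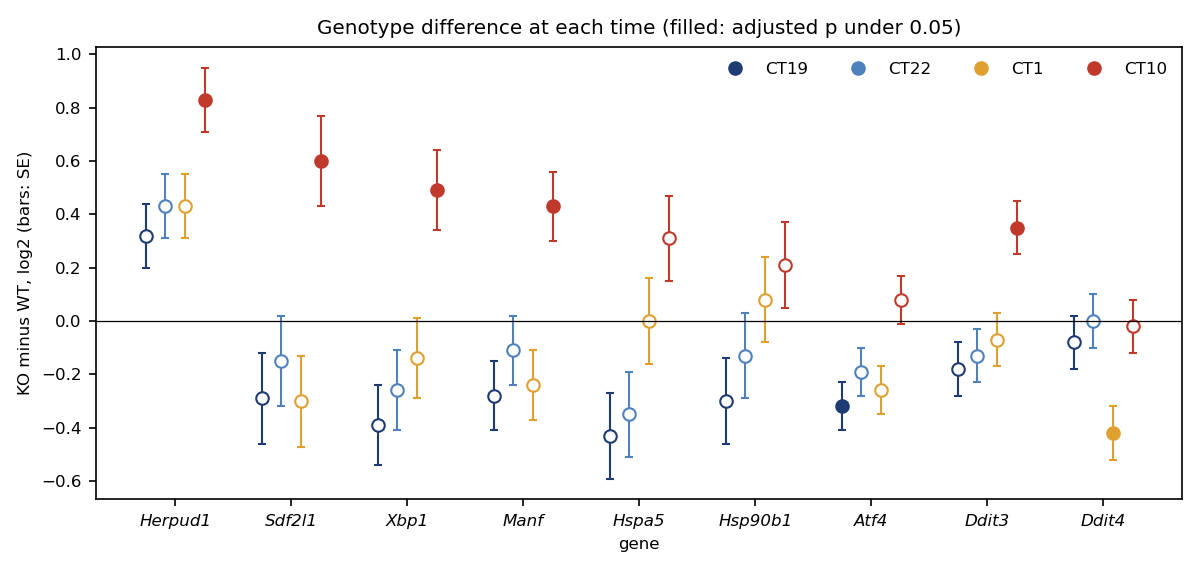
Log2 difference KO minus WT at each circadian time for the 9 genes, with bars of 1 SE; filled points are called. At CT10 (red) 5 genes are called above 0, from 0.35 for Ddit3 to 0.83 for Herpud1, and at CT19 (dark blue) 8 of the 9 points are below 0.

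Herpud1 was called at CT10 with any of the 32 libraries left out, and the other 4 calls depended on single libraries of that time. Leaving out 1 library at a time gave between 1 and 5 called members, with 1 when KO replicate 4 or KO replicate 5 of CT10 was left out, 2 without WT replicate 1, 2 or 5 and 3 without WT replicate 4 or KO replicate 2. Where a call was lost the difference was 0.47 to 0.59 for Sdf2l1, 0.41 to 0.50 for Xbp1, 0.37 to 0.43 for Manf and 0.29 to 0.31 for Ddit3, with adjusted p from 0.0532 to 0.116. The estimate was below 0 at CT19 and above 0 at CT10 for 7 of the 9 members and for 21.3% of all genes; no member was called at both times. With CT10 left out, the mean difference was called and negative for Xbp1 (-0.27, SE 0.08, adjusted p = 0.037) and Atf4 (-0.25, SE 0.05, adjusted p = 0.00139).

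Whether the effect of genotype depended on time was tested by the interaction over all times, which called none of the 9 members and 1.62% of all genes (unadjusted p under 0.05 for 8 members; DESeq2 called 4, Sdf2l1, Xbp1, Manf and Ddit3). Xbp1 had the lowest adjusted p, at 0.0558. The same question put as 1 contrast, the CT10-against-others difference in KO minus that in WT, was added after the data were seen and called 4.34% of all genes. It shares the WT libraries of CT10 with the comparisons above and is not independent of them. It called Sdf2l1 (0.85, SE 0.20, adjusted p = 0.0115), Xbp1 (0.76, SE 0.17, adjusted p = 0.00946), Manf (0.64, SE 0.16, adjusted p = 0.0171) and Ddit3 (0.48, SE 0.12, adjusted p = 0.0162). Herpud1 stood at 0.43 (SE 0.14, adjusted p = 0.0726), so its difference at CT10 was not shown to exceed that at the other times.

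Markers of other cells moved with the CT10 comparisons. At CT10 the inner retinal level was 3.31 ± 0.36 in WT and 4.35 ± 0.18 in KO, and 12 of 14 bipolar markers, 8 of 14 Muller glia markers, 5 of 12 amacrine markers and 5 of 8 horizontal cell markers were called, all higher in KO. In WT, CT10 against the other times called 20.9% of all genes. Lower at CT10 were 9 of 14 bipolar, 10 of 12 amacrine and 6 of 14 Muller glia markers, while 0 of 9 ganglion cell markers were called. Of 12 rod markers 4 were called, 3 of them higher at CT10, and of 9 cone markers 2, all higher. Vascular and blood markers (4 of 11 higher in KO at CT10) moved in the same direction as the inner retinal markers. Lens markers stood in the opposite order, at 7.46 in WT and 4.89 in KO at CT10, with 1 of 15 called. Neither level overlapped between the genotypes at CT10. The inner retinal level ran from 2.893 to 3.733 in WT and from 4.221 to 4.605 in KO. The lens level ran from 6.748 to 8.628 in WT and from 3.071 to 6.609 in KO. The covariate fits that follow therefore cannot cleanly separate these levels from genotype at that time. The part of these cells in the member results was not tested.

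**Figure D4:**
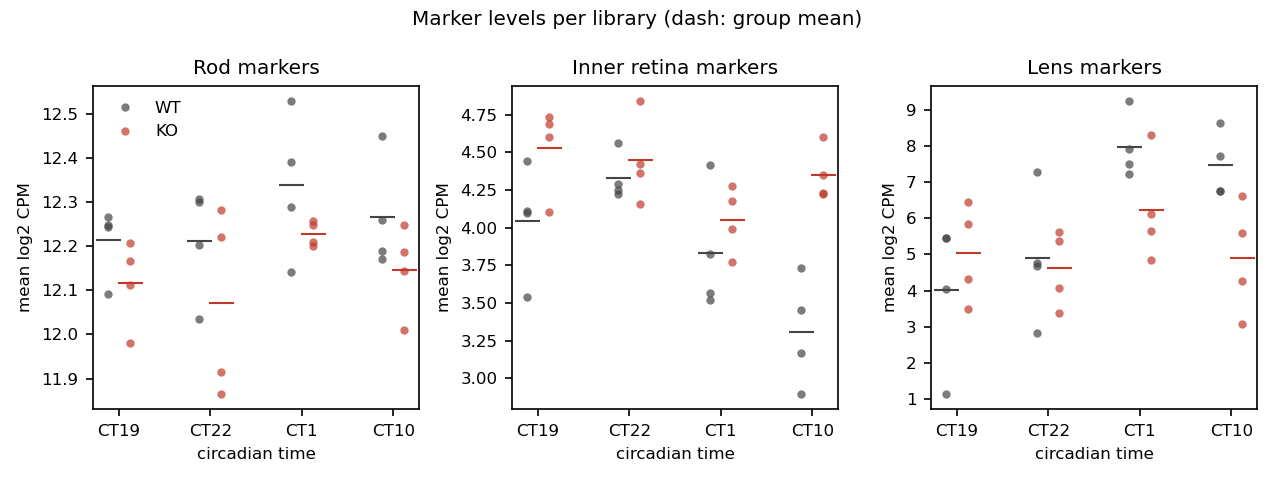
Mean log2 CPM of rod, inner retinal and lens marker lists in each library (points) with the group mean (dash), WT in grey and KO in red; the vertical axes differ. Inner retinal markers are lowest in WT at CT10 and lens markers highest in WT at CT1 and CT10.

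With the inner retinal level as a covariate, no member was called at CT10 by edgeR (6 had an unadjusted p under 0.05), 1.26% of all genes were called, and Herpud1 was 0.63 higher in KO (SE 0.17, adjusted p = 0.0565). The values of the other 4 called members under this covariate were 0.57 for Sdf2l1, 0.65 for Xbp1, 0.36 for Manf and 0.36 for Ddit3, with SEs from 0.15 to 0.24 in place of 0.10 to 0.17. With the lens level as a covariate 1 member was called, Herpud1 (0.77, SE 0.14, adjusted p = 0.00061; 10.5% of genes called), and Xbp1 moved from 0.49 to 0.29 (SE 0.15). With both levels no member was called (1 had an unadjusted p under 0.05; 0.358% of genes called) and Herpud1 was at 0.50 (SE 0.19, adjusted p = 0.407). The fall at CT10 within WT was called for 4 members with the inner retinal level (12.9% of genes called), 6 with the lens level (18.7%) and 1, Xbp1, with both (6.14%). Under the inner retinal covariate Xbp1 was at -0.84 (SE 0.16, adjusted p = 0.00094), Atf4 at -0.39 (adjusted p = 0.0123) and Ddit3 at -0.35 (adjusted p = 0.0388), while Herpud1 was at -0.24 (adjusted p = 0.234). The fourth call was that of Hsp90b1, which was not called without the covariate and stood at -0.51 with it (SE 0.15, adjusted p = 0.024).

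**Figure D5:**
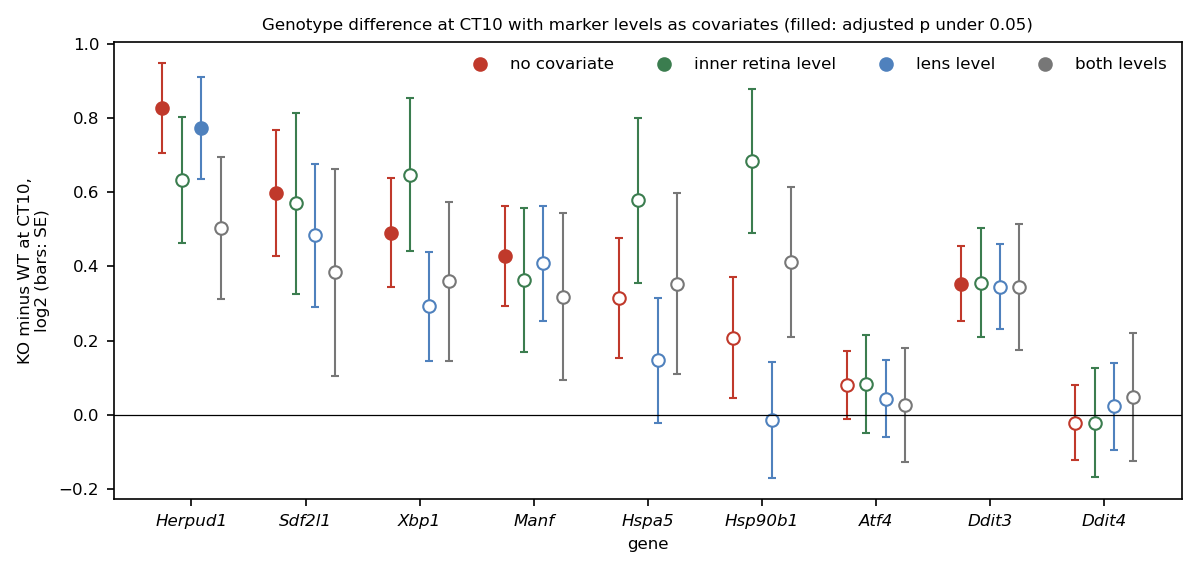
Log2 difference KO minus WT at CT10 for the 9 genes without a covariate (red), with the inner retinal level (green), the lens level (blue) or both (grey), with bars of 1 SE; filled points are called. Ddit3 stays between 0.34 and 0.36 while its bars widen, and Hsp90b1 moves between -0.02 and 0.68.

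Hspa5 and Hsp90b1, the chaperones with ERSE matches printed above, were called in none of the comparisons when all libraries were fitted without a covariate. Hspa5 was called at CT10 when only the 8 libraries of that time were fitted (0.32 higher in KO, SE 0.10, adjusted p = 0.0485). That fit called 2238 genes and 6 members, the most members of any setting at CT10. Hsp90b1 was called only in WT at CT10 with the inner retinal level as a covariate, as given above. Hspa5, the chaperone that holds the sensors inactive (chromosome 2, 34771970 to 34777547, plus strand), ran from 160 to 328 CPM over the libraries, and its group means from 180 CPM in KO at CT19 to 267 CPM in WT at CT22. Hsp90b1, which folds a narrower set of client proteins (chromosome 10, 86690209 to 86705509, minus strand), ran from 328 to 776 CPM. WT replicate 3 of CT19 was the highest library for both genes. Within groups the log2 SD was 0.24 for both, the widest of the 9 members, against 0.13 for Atf4, the narrowest.

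The 2 chaperones varied together across libraries, with a Pearson r of 0.82 over the 32 libraries and 0.81 within groups. The genes most like Hspa5 over the 32 libraries were Calr (r = 0.87) and Pdia3 (0.84), and those most like Hsp90b1 were Calr (0.85) and Hspa5; Calr and Pdia3 encode a chaperone and a disulfide isomerase that act on glycoproteins in the ER. Herpud1 had an r of 0.05 with Hspa5 and 0.10 with Hsp90b1 over the 32 libraries, and of 0.43 and 0.22 within groups. Its nearest genes were Rab3ip (0.87), Tpbgl (0.87) and Jdp2 (0.85). Sdf2l1, Manf, Atf4 and Ddit3 were related to each other at r from 0.64 to 0.77, and Manf was the gene most like Sdf2l1 (0.75). Xbp1 was most like Hexim1 (0.88), Irf7 and Zdhhc5 (0.87 each), Atf4 most like Ubald2 (0.86), Manf most like Ostc (0.86), and Ddit4 most like Nap1l4 (0.83), Jun (0.82) and Dnajb1 (0.82). These correlations share the libraries, their depth and their cell makeup: Herpud1 had an r of 0.69 with the inner retinal level over the 32 libraries and 0.31 within groups, Xbp1 had -0.51 and -0.49 with the lens level, and Hsp90b1 had -0.55 and -0.52 within groups with the inner retinal and lens levels.

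The rest of the pathway was read from 5 lists, of ER stress sensors, transcription factors of the response, ER chaperones and folding enzymes, ER-associated degradation and ER translocation, which without the members held 74 tested genes. At CT10 between the genotypes 2 of the 74 were called (2.7%, against 10.2% of all genes), and both fell in KO. They were Pdia5, a disulfide isomerase (-0.35, SE 0.09, adjusted p = 0.00758), and Cdnf, the paralog of Manf (-0.58, SE 0.15, adjusted p = 0.013). Cdnf thus moved opposite to Manf, from 8.89 ± 0.44 CPM in WT to 5.94 ± 0.96 CPM in KO at CT10 (SD).

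Averaged over the times, 7 of the 74 were called between the genotypes (9.46%, against 16.3% of all genes). The 4 that rose were Cebpb, a factor of the stress response (0.88, SE 0.25), Creb3l2 (0.17, SE 0.06), the sensor Eif2ak3 (0.12, SE 0.04) and the translocon component Sec62 (0.15, SE 0.04). The 3 that fell were Pdia5 (-0.18, SE 0.04), Syvn1, the ubiquitin ligase with which Herpud1 assembles (-0.15, SE 0.05), and Erlec1, a lectin of the same degradation route (-0.13, SE 0.04). Of 23 tested genes of ER-associated degradation, Herpud1 was the 1 called as higher in KO and 2 were called as lower. Without Herpud1, 9.09% of this list was called, against 16.3% of all genes. At CT19 the chaperone Hyou1 fell (-0.37, SE 0.10, adjusted p = 0.0244), the 1 called of 74, and none was called by edgeR at CT22 or CT1, where 6 and 7 had an unadjusted p under 0.05 and DESeq2 called 0 and 1.

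In WT, 14 of the 74 were called between CT10 and the other times, 9 higher and 5 lower at CT10 (18.9%, against 20.9% of all genes). Higher at CT10 were the disulfide reductase Dnajc10 (0.37, SE 0.07), Cdnf (0.65, SE 0.12), the signal peptidase subunit Spcs3 (0.42, SE 0.09), the translocon-associated Ssr3 (0.34, SE 0.08) and Ssr1 (0.27, SE 0.06), Sec63 (0.26, SE 0.07), Edem3 (0.21, SE 0.06), Vcp (0.23, SE 0.08) and Dnajb9 (0.26, SE 0.09). Lower were Atf6b (-0.30, SE 0.07), the antioxidant factor Nfe2l2 (-0.26, SE 0.06), Hyou1 (-0.26, SE 0.08), Fkbp2 (-0.39, SE 0.13) and Atf3 (-0.49, SE 0.17). The median over the 74 was 0.02, against -0.38 over the 9 members and -0.01 over all genes. Among the 5 lists the transcription factors had the lowest median without members, at -0.21 over 8 genes, of which 2 were called, both lower. In KO none of the 74 was called for this comparison, by edgeR or by DESeq2, and 4 had an unadjusted p under 0.05.

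Of 29 tested targets of ATF4 other than the members, 6 were called in WT between CT10 and the other times (20.7%, beside 20.9% of all genes), with 4 lower: Ppp1r15a, the phosphatase subunit that ends eIF2 alpha phosphorylation (-0.57, SE 0.11), Trib3, an inhibitor of ATF4 and CHOP (-0.60, SE 0.13), Atf3 and Sesn2 (-0.25, SE 0.09). The 2 higher were the cystine transporter Slc7a11 (1.57, SE 0.45) and Vldlr (0.24, SE 0.08). Between the genotypes averaged over the times, 3 of the 29 were called (10.3%, beside 16.3% of all genes): Trib3 fell (-0.29, SE 0.07, adjusted p = 0.00734), while Slc7a5, an amino acid transporter (0.42, SE 0.10), and the serine synthesis enzyme Psat1 (0.37, SE 0.10) rose. At CT19, 1 of the 29 was called (3.45%, beside 5.19% of all genes): Trib3 fell in KO (-0.53, SE 0.15, adjusted p = 0.0351). At CT10, 1 of the 29 was called (3.45%, beside 10.2% of all genes): Psat1 rose in KO (0.69, SE 0.19, adjusted p = 0.0188). Of 7 kinases and phosphatase subunits acting on eIF2 alpha, 2 were called at CT19 (28.6%, beside 5.19% of all genes). In KO at that time Eif2ak1 rose (0.33, SE 0.09) and Ppp1r15b fell (-0.26, SE 0.08). Averaged over the times 1 of the 7 was called (14.3%, beside 16.3% of all genes), and 0 were called at CT22, CT1 or CT10.

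In the lists around Ddit4 the shares called between the genotypes averaged over the times, beside 16.3% of all genes, were 2 of 12 glucocorticoid targets (16.7%), 4 of 9 hypoxia targets (44.4%) and 2 of 16 mTORC1 genes (12.5%), Ddit4 left out. Among the glucocorticoid targets, Tsc22d3 rose in KO averaged over the times (0.72, SE 0.06, adjusted p = 3.16e-10) and Sgk1 fell (-0.36, SE 0.06, adjusted p = 2.72e-05). At CT1, 2 of the 12 were called (16.7%, beside 1.58% of all genes). Sgk1 was lower in KO (-0.52, SE 0.11, adjusted p = 0.00664) and Tsc22d3 higher (0.59, SE 0.12, adjusted p = 0.00606). For CT10 against the other times in WT, 1 of the 12 was called (8.33%, beside 20.9% of all genes): Dusp1 fell (-1.11, SE 0.17). Between the genotypes at CT10, 2 of the 12 were called (16.7%, beside 10.2% of all genes), all higher in KO. Dusp1 was among them (0.71, SE 0.19, adjusted p = 0.0176). Of the hypoxia targets, Ndrg1 (-0.72, SE 0.04, adjusted p = 6.31e-16) and the glucose transporter Slc2a1 (-0.22, SE 0.05) fell in KO, and Vegfa (0.43, SE 0.10) and Egln3 (0.72, SE 0.21) rose. Of the mTORC1 genes, Rps6kb1, a kinase that mTORC1 activates, fell in KO (-0.14, SE 0.04) and Txnip rose (0.54, SE 0.17).

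Some counts are less certain because annotated exons overlap and the strand setting of the counting is not given in the sources used here. Manf shares 146 bases (4.1% of its exon length) with Dcaf1 and 166 (4.7%) with 4930524O07Rik on the opposite strand. It shares 14 (0.4%) with Rbm15b on its own strand. Dcaf1 held 147%, Rbm15b 153% and 4930524O07Rik 3.95% as many counts as Manf. Ddit3 shares 68 bases, 4.0% of its exon length, with Mars on the opposite strand, and Mars held 283% as many counts as Ddit3. Hsp90b1 shares 415 bases with the pseudogene 1810014B01Rik, which held 1.15% as many counts. Among the pathway genes named above, Cebpb shares 312 bases, 20.7% of its exon length, with the far more abundant Tmem189, Txnip shares 606 bases (19.4%) with Gm15441, and Eif2ak1 shares 487 bases (8.6%) with Aimp2, all on the opposite strand.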

How the data were processed

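Values are raw read counts per Ensembl gene, deposited by the authors as 1 table of 32 libraries. HTSeq 0.11, HISAT2 2.1.0, Trimmomatic 0.32 and Cufflinks, with the build GRCm38.p6, are named in the submitters' processing notes, and the strand setting and annotation release were not stated in any label or header. Gene positions and exon lengths came from the GENCODE mouse annotation (99.9% of identifiers named), and promoters from RefSeq.

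In R 4.3.3, edgeR 4.0.16 kept 17871 genes (filterByExpr, minimum count 10, minimum total 15), scaled libraries by TMM and fitted all 32 libraries with 1 mean per group (24 residual degrees of freedom). Contrasts were tested with the robust quasi-likelihood test and Benjamini-Hochberg adjustment over all tested genes, at 0.05, in 10 comparisons: KO against WT at single times and averaged over them; within a genotype, any change among times and CT10 against the others; and the genotype by time interaction. DESeq2 1.42.0, covariates, a filter-free fit, blocks and left-out libraries were alternatives. The inner retinal and lens covariates are mean log2 CPM over marker lists, with a prior count of 2.

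The members and lists were chosen with earlier results of these data known. By the naming rule, all 9 members are given in every comparison, with up to 4 called genes of smallest p per list and the 5 genes most correlated with each member; genes beyond these were named after their values were seen. No 2 libraries of a group agreed within sampling noise (the smallest chi-square was 12.1 per degree of freedom). Libraries bear animal numbers, but no label says how animals were allotted, so p-values measure the spread between these libraries. Same-numbered libraries did not deviate together (mean r 0.01, from -0.21 to 0.30 over 77 pairs), so the numbers were not used as pairs. On simulated counts (200 of 17871 genes changed by 1 on the log2 scale) the test recovered 98.5% for KO against WT averaged over the times, 79.5% for KO against WT at CT10 and 91% for CT10 against the other times in WT. Changes as small as those of the members, at most 0.83 in these comparisons (Herpud1 at CT10), were not simulated.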

Additional observations from a re-analysis of the deposited data

Results flagged for a closer look

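For 3 values, 1 library stood far from the other libraries of its group, by a gap that is large against the range of the group. Each of the 9 genes was examined in each of the 8 groups, 72 in all, and about 1 group in 20, or 5%, is flagged by chance alone. Manf in WT at CT22 was at 40.5 CPM in replicate 2, with the other 3 libraries between 50.9 and 53.1 CPM. Hsp90b1 was at 403 CPM in the same library, with the others between 514 and 536 CPM. Hsp90b1 in KO at CT22 was at 328 CPM in replicate 2, with the others between 483 and 519 CPM.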

How the results depend on the processing

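Of 783 values of single genes under settings other than leaving out a library, 712 kept their direction and side of the threshold, and no value changed sign while called. Herpud1 between the genotypes averaged over the times was called in all 41 settings, between 0.37 and 0.53 on the log2 scale. The counts that moved by over 1.5 times follow, and the cause was not tested. With the inner retinal level as a covariate, the genes called between KO and WT were 759 averaged over the times (1 member), 408 at CT19 (0 members) and 226 at CT10 (0 members), those called among the times were 1383 in WT (2 members) and 2 in KO, those called for CT10 against the others in WT were 2312 (4 members), and the interaction called 171. With the lens level, 0 members were called at CT19 and at CT1, 1 at CT10 and 2 among the times in WT, and the genes called were 0 for CT10 against the others in KO and 131 for the interaction. With both levels, the genotypes differed in 543 genes on average (1 member), 384 at CT19 (0 members) and 64 at CT10 (0 members), with 0 members at CT1, and the calls were 467 among the times in WT (1 member), 0 in KO, 1097 for CT10 against the others in WT (1 member), 0 in KO and 8 for the interaction. DESeq2 called 1505 genes at CT19, 445 at CT22 (1 member), 480 at CT1 (2 members), 183 among the times in KO, 29 for CT10 against the others in KO and 913 for the interaction (4 members). Without a filter on low counts, 546 genes (0 members) were called at CT19 and 5 among the times in KO. Fits to the libraries of 1 time called 194 genes at CT19 (0 members), 112 at CT22 and 179 at CT1 (0 members). With the set of 8 library numbers as a block, 2 members were called at CT1 and 0 genes in KO among the times or for CT10 against the others. With the animal number as a replicate block, 0 genes were called among the times in KO, and the interaction called 1 member, Xbp1 (adjusted p = 0.0417); the block changed no other member call. After the data were seen, leaving out CT10 gave 0 genes and 0 members among the times in WT, and the interaction as 1 contrast gave 775 genes and 4 members. Leaving out each library in turn gave, between the genotypes, 2469 to 3316 genes (2 to 3 members) averaged over the times, 437 (without WT replicate 3 of CT19) to 1206 (0 to 1 members) at CT19, 170 to 301 (0 to 1) at CT22, 181 to 352 (0 to 2) at CT1 and 950 (without WT replicate 2 of CT10) to 1942 (1 to 5) at CT10. Among the times it gave 1545 (without WT replicate 2 of CT10) to 3173 genes (3 to 7 members) in WT and 0 to 28 (0 members) in KO, for CT10 against the others 2415 to 4007 (6 to 7) in WT and 0 to 20 (0) in KO, and for the interaction 142 (without KO replicate 4 of CT10) to 444 (0 to 2). The lowest count behind a member value was 122.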
